A study of Mus musculus with 6 samples.

Results

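The CELF and Muscleblind families of RNA binding proteins were followed in cultured mouse cortical neurons through the rows of their 9 genes, Celf1 to Celf6 and Mbnl1 to Mbnl3, and of the 109 transcripts annotated to them. The tables hold 49671 genes and 123063 transcripts in all. The neurons came from the neocortex of C57BL/6 embryos at embryonic day 14 and were grown in 35 mm dishes, and total RNA was sequenced in 6 libraries, 2 for each of 3 groups. The groups were wild type after 3 days in vitro (WT DIV3), Ptbp2 KO after 1 day in vitro (KO DIV1) and wild type after 1 day in vitro (WT DIV1). Per the design text, the axon starts to outgrow the other neurites around DIV3, whereas the neurites cannot yet be told apart at DIV1, so the first comparison sets WT DIV3 against WT DIV1 and the second sets KO DIV1 against the same WT DIV1 libraries. Ptbp2 encodes a neuronal polypyrimidine tract binding protein that mostly represses exons. The labels give no Cre line, promoter or allele for the knockout.

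CELF and Muscleblind proteins bind RNA in the nucleus and the cytoplasm and shape splicing, polyadenylation, localization and decay of their targets. CELF proteins carry RNA recognition motifs and bind UG-rich sequence, while Muscleblind proteins carry zinc fingers and bind YGCY motifs. The families have opposite effects on many shared exons. In myotonic dystrophy, Muscleblind proteins are held in nuclear foci by expanded repeats while CELF1 activity is raised. Celf1 and Celf2 are widely expressed, Celf3 to Celf6 are found mainly in the nervous system, Mbnl1 and Mbnl2 act in differentiated tissues, and Mbnl3 is best known from placenta and from dividing muscle precursors.

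Library totals ranged from 39104879 to 75522198 expected counts. The 2 KO DIV1 libraries were less alike than the wild-type pairs, with an SD over genes of the log2 ratio of replicates of 0.39 in WT DIV3, 0.50 in KO DIV1 and 0.38 in WT DIV1. Across genes, transcript length had a Spearman correlation with the log2 ratio of replicate 1 to replicate 2 of 0.28 in WT DIV3, -0.48 in KO DIV1 and 0.25 in WT DIV1 (genes are no independent points). Effect sizes for the knockout are therefore given with and without each of its libraries where that changes them. Calls in the knockout comparison from fits with 1 knockout library are not given. The targeted gene Ptbp2 had 474 and 514 CPM (read counts relative to library size, TMM-scaled) in KO DIV1 and 465 and 429 CPM in WT DIV1, so its log2 fold change of 0.14 did not pass (edgeR adjusted p = 0.413). Adjusted p-values are from edgeR's quasi-likelihood test with Benjamini-Hochberg (BH) adjustment over all genes. With no allele in the labels, counts of the whole gene cannot check the knockout, so knockout denotes the label here. The neuronal markers Tubb3, Map2, Rbfox3, Dcx, Neurod6, Stmn2 and Snap25 summed to 9279 and 9368 CPM in WT DIV3, 5513 and 5819 CPM in KO DIV1 and 6102 and 5965 CPM in WT DIV1, so they were abundant in every library. The radial glia and progenitor markers summed to 843 and 821 CPM in WT DIV3, 1491 and 1337 CPM in KO DIV1, and 1271 and 1232 CPM in WT DIV1. The proliferation markers Mki67, Top2a and Ccnb1 summed to 495 and 490 CPM in WT DIV3, 1043 and 1057 CPM in KO DIV1, and 1057 and 1005 CPM in WT DIV1.

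Celf2 was the most abundant of the 9 genes in every library on a per-length scale, and Mbnl3 the least abundant. Levels between genes were compared as TPM, computed from transcript counts and annotated lengths. Celf2 had 429.7 and 345 TPM in WT DIV3, 244 and 293 TPM in KO DIV1, and 350.2 and 318 TPM in WT DIV1, and made up between 39.3% and 44.8% of the summed TPM of the 6 CELF genes in each library. In WT DIV1 the order of mean TPM was Celf2 (334), Celf1 (136), Celf3 (123), Celf4 (98.1), Celf5 (70.2), Mbnl1 (17.96), Mbnl2 (11.03), Celf6 (9.14) and Mbnl3 (3.35). KO DIV1 had the same order, at 269, 133, 107, 79.2, 56.6, 14.2, 9.11, 5.44 and 4.03 TPM. In WT DIV3, Celf4 at 164 ± 11.5 TPM (SD, n = 2) stood above Celf1 at 137 ± 9.39 and Celf3 at 122 ± 0.251 TPM, and Celf6 at 20.1 ± 1.79 TPM stood above Mbnl1 at 17.2 ± 0.332 TPM. The ranges of neighbours in these orders did not overlap in any of the 3 groups, although ranges of 2 libraries say little.

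The CELF genes together exceeded the Muscleblind genes by a factor of more than 21 in each library. Their summed level was 1007 and 879 TPM in WT DIV3, 594 and 706 TPM in KO DIV1, and 781 and 759 TPM in WT DIV1. The 3 Muscleblind genes summed to 27.3 and 25.6 TPM in WT DIV3, 22.4 and 32.4 TPM in KO DIV1, and 33.6 and 31.1 TPM in WT DIV1. The ratio of the sums was 36.8 and 34.4 in WT DIV3, 26.6 and 21.8 in KO DIV1, and 23.3 and 24.4 in WT DIV1. Both WT DIV3 ratios lay above the other 4, and the knockout ratios lay on either side of those of WT DIV1. The plot of TPM by library shows the gap between the families and the shift of Celf6.

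**Figure D1:**
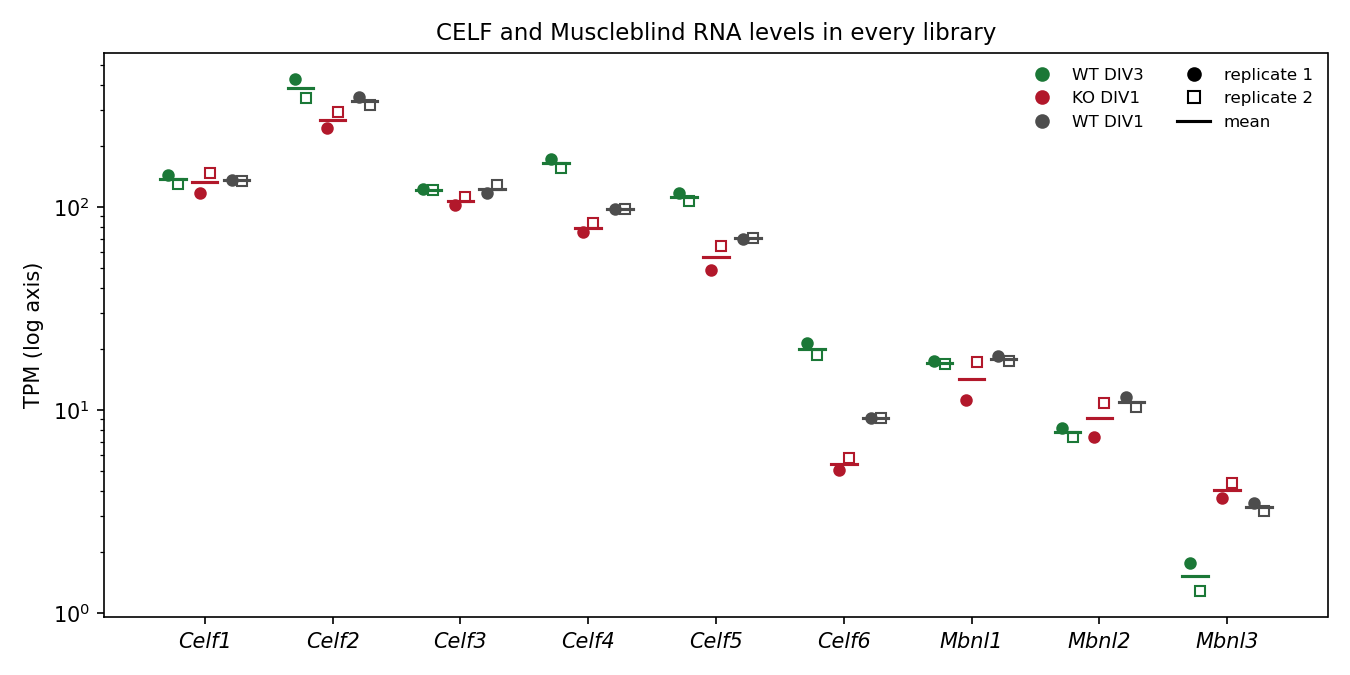
TPM (log axis) of the 9 genes in every library, with circles for replicate 1, open squares for replicate 2 and a line for the mean of each group. Celf2 is highest throughout, Mbnl3 lowest, and Celf6 lies at 20.1 TPM in WT DIV3, 5.44 TPM in KO DIV1 and 9.14 TPM in WT DIV1.

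At DIV3, 3 of the 4 neuron-enriched members, Celf4, Celf5 and Celf6, rose, whereas Celf3 did not pass (adjusted p = 0.853, edgeR), and Mbnl3 fell. Celf2 rose and Mbnl2 fell as well, but both calls ended with the replicate number as a block and without any 1 wild-type library. Of the 9 genes, 6 were called at an adjusted p under 0.05, against 36.1% of all 16847 genes tested, and all 9 passed the filter on low counts. The 4 higher members can be read against 19.8% of all genes called higher, and the 2 lower ones against 16.4% called lower. The median log2 fold change was 0.49 over the CELF genes, -0.46 over the Muscleblind genes and -0.02 over all genes. With library totals in place of TMM factors the median of all genes moved to -0.13. In bulk RNA, fewer cells of a type cannot be told apart from less RNA per cell, here and in the results that follow.

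Celf6 (chromosome 9, 59577917 to 59607292, plus strand, GRCm38), a splicing activator and the scarcest of the CELF genes here, showed the largest increase of the 9. It had 23.9 and 21.4 CPM in WT DIV3, against 10.8 and 10.5 CPM in WT DIV1. The WT DIV3 libraries were both far above WT DIV1, 2.13-fold on average, with a log2 fold change of 1.09 ± 0.11 (SE; BH-adjusted p = 0.000533, edgeR quasi-likelihood test). Celf4 (chromosome 18, 25477632 to 25754157, minus strand), whose protein binds many synaptic messenger RNAs and whose loss causes seizures in mice, had 242 and 227 CPM in WT DIV3, against 136 and 136 CPM in WT DIV1. Its groups were far apart relative to the gap between replicates, and its log2 fold change was 0.79 ± 0.07 (BH-adjusted p = 0.000366, edgeR). Celf5 (chromosome 10, 81459227 to 81482709, minus strand), a close relative of Celf4, had 219 and 207 CPM in WT DIV3, against 132 and 133 CPM in WT DIV1. It rose by 0.68 ± 0.09 on the log2 scale (BH-adjusted p = 0.00163, edgeR). All 3 of these calls held under each alternative setting and without any 1 library.

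Celf2, also known as CUGBP2 and ETR-3, had 1074 and 1018 CPM in WT DIV3, against 864 and 832 CPM in WT DIV1. The increase was small, 0.30 ± 0.09 on the log2 scale (BH-adjusted p = 0.0361, edgeR), although the groups did not overlap, as in 76.2% of all genes. Its call ended with library totals (0.19, BH-adjusted p = 0.142, edgeR), with the trend on transcript length removed (0.14, adjusted p = 0.269), with the replicate number as a block (adjusted p = 0.0647) and without any 1 of the 4 wild-type libraries (adjusted p from 0.109 to 0.238). Celf1 (chromosome 2, 90940382 to 91019497, plus strand), the founding member of the family and a regulator of decay of GU-rich messenger RNAs, had 382 and 364 CPM in WT DIV3 and 348 and 337 CPM in WT DIV1. Its log2 fold change of 0.12 ± 0.10 did not pass (BH-adjusted p = 0.373, edgeR), and it was -0.03 with the length trend removed. Celf3 (chromosome 3, 94478295 to 94492198, plus strand), known for a polyglutamine stretch in its human protein, had 137 and 142 CPM in WT DIV3 and 134 and 149 CPM in WT DIV1. The groups overlapped, with a log2 fold change of -0.02 ± 0.08 (BH-adjusted p = 0.853, edgeR).

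Among the Muscleblind genes, Mbnl3 (X chromosome, 51117269 to 51206532, minus strand) showed the largest decrease. It had 1.997 and 1.72 CPM in WT DIV3, from 144 and 64 expected counts, against 4.72 and 3.57 CPM in WT DIV1, from 228 and 182 expected counts. Its log2 fold change was -1.14 ± 0.20 (BH-adjusted p = 0.00509, edgeR), and the call held in every setting and without any 1 library. Mbnl2 (chromosome 14, 120275669 to 120431697, plus strand), the member whose loss in mice disturbs splicing mainly in brain, had 17.3 and 16.1 CPM in WT DIV3, against 24.2 and 21.9 CPM in WT DIV1. It fell by 0.46 ± 0.15 on the log2 scale (BH-adjusted p = 0.0472, edgeR). That call ended with the replicate block (adjusted p = 0.0829) and without any 1 wild-type library (adjusted p from 0.132 to 0.219). Mbnl1 (chromosome 3, 60472830 to 60629750, plus strand), the main splicing factor of the family in muscle, had 36.9 and 36.6 CPM in WT DIV3 and 39.7 and 38.7 CPM in WT DIV1. Its log2 fold change was -0.09 ± 0.12 (BH-adjusted p = 0.583, edgeR).

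Markers of several cell types moved between the same libraries. In WT DIV3 against WT DIV1, 5 of 7 neuronal markers were higher, 1 of 7 radial glia and progenitor markers was higher and 5 were lower, and all 3 intermediate progenitor markers and all 3 proliferation markers were lower. The 7 pericyte and fibroblast markers summed to 53.9 and 54.2 CPM in WT DIV3, against 16.4 and 17.7 CPM in WT DIV1, and all 7 were called higher. The 4 oligodendrocyte lineage markers summed to 35.5 and 29.9 CPM in WT DIV3, against 10.9 and 9.13 CPM in WT DIV1, and the 4 astrocyte markers to 22.7 and 21.5 CPM, against 8.39 and 9.56 CPM. Of 4 microglia markers tested, 1 was lower and none higher (sums of 3.19 and 5.71 CPM in WT DIV3, against 8.02 and 8.13 CPM in WT DIV1), and the 4 endothelial markers, of which 2 were tested and none called, summed to no more than 1.06 CPM in any library. The 4 erythroid markers summed to 0.264 and 0.646 CPM in WT DIV3, against 12.8 and 8.15 CPM in WT DIV1. The part of these shifts in the changes of CELF and Muscleblind genes was not tested.

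**Figure D2:**
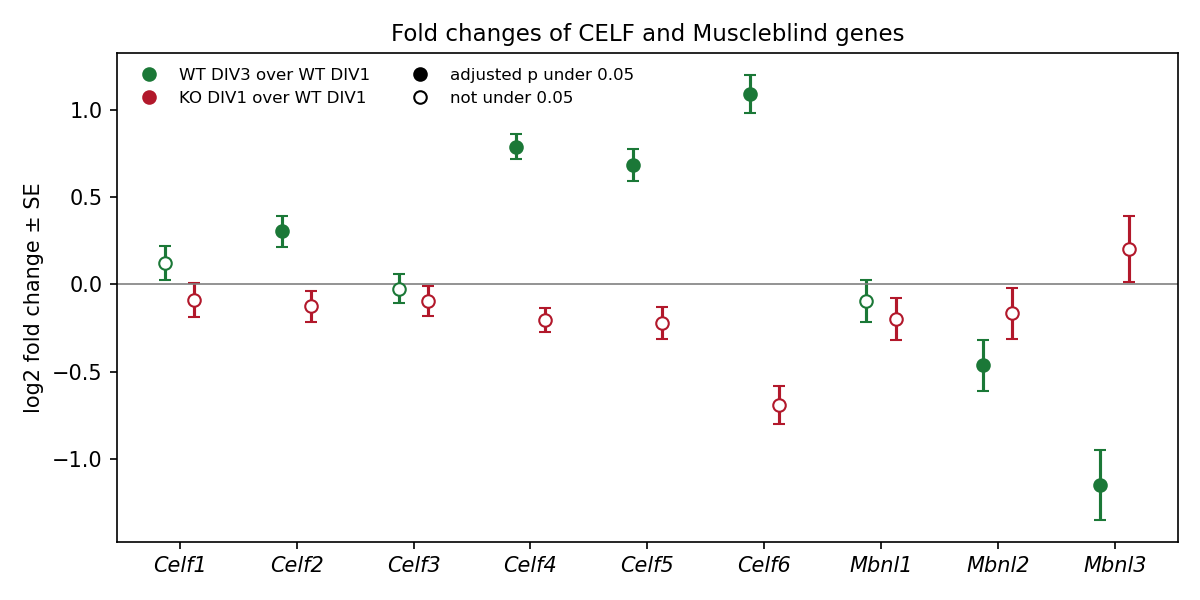
Log2 fold change ± SE of the 9 genes for WT DIV3 over WT DIV1 and for KO DIV1 over WT DIV1 (edgeR, 2 libraries per group). Filled points have an adjusted p under 0.05, which holds for 6 genes at DIV3 and for 0 in the knockout, where Celf6 lies lowest at -0.69.

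In the knockout comparison the total level of none of the 9 genes was called, and neither was that of any other gene, 0 of 16847 (0%), by the edgeR quasi-likelihood test with Benjamini-Hochberg adjustment. At an unadjusted p under 0.05 there were 2475 genes, 14.7% of those tested, and DESeq2 called 198. The median log2 fold change was -0.16 over the CELF genes, -0.16 over the Muscleblind genes and 0.00 over all genes. Celf6 had the largest difference among the 9, with 6.46 and 6.74 CPM in KO DIV1, against 10.8 and 10.5 CPM in WT DIV1. Both knockout libraries lay below both WT DIV1 libraries, as for 26.2% of all genes by any margin, and the log2 fold change was -0.69 ± 0.11 (unadjusted p = 0.000405, BH-adjusted p = 0.171, edgeR). Celf6 was called by DESeq2 (-0.69, adjusted p = 0.000812). It was also called with edgeR and no filter on low counts (-0.68, adjusted p = 0.00529), beside 1061 of 26492 genes. Its log2 fold change was -0.72 without KO DIV1 replicate 2 and -0.66 without KO DIV1 replicate 1. Over all settings and with each library left out, the log2 fold change lay between -0.72 and -0.66. Over the settings with 2 libraries per group, the adjusted p lay between 0.000812 (DESeq2) and 0.483 (edgeR with the replicate block).

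The other members lay closer to wild type. Celf4 had 119 and 117 CPM in KO DIV1, against 136 and 136 CPM in WT DIV1, a log2 fold change of -0.20 ± 0.07 (BH-adjusted p = 0.333, edgeR). Celf5 had 105 and 123 CPM in KO DIV1, against 132 and 133 CPM in WT DIV1, a log2 fold change of -0.22 ± 0.09 (BH-adjusted p = 0.333, edgeR). That of Celf5 was -0.11 with the length trend removed, -0.11 without KO DIV1 replicate 1 and -0.33 without KO DIV1 replicate 2. In all, 5 of the 9 genes, Celf2, Celf4, Celf5, Celf6 and Mbnl1, lay below both WT DIV1 values in both knockout libraries. The same held, by any margin, for 26.2% of all genes, and the groups did not overlap in either direction for 53.1%. None of these differences passed. Celf2 had 768 and 788 CPM in KO DIV1, against 864 and 832 CPM in WT DIV1, and Celf1 had 296 and 348 CPM, against 348 and 337 CPM. With the length trend removed, the log2 fold changes of Celf2 and Celf1 turned to 0.10 and 0.10, from -0.12 and -0.09. Celf3, at 137 and 128 CPM in KO DIV1 and 134 and 149 CPM in WT DIV1, overlapped between groups.

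The knockout replicates disagreed on the Muscleblind genes. Mbnl1 had 30.3 and 38.0 CPM in KO DIV1, against 39.7 and 38.7 CPM in WT DIV1. Mbnl2 had 17.8 and 23.2 CPM in KO DIV1, against 24.2 and 21.9 CPM in WT DIV1. In both genes the low value came from KO DIV1 replicate 1. Mbnl3 had 4.33 and 5.21 CPM in KO DIV1, against 4.72 and 3.57 CPM in WT DIV1, and its log2 fold change of 0.20 ± 0.19 was 0.017 without WT DIV1 replicate 2 and 0.42 without WT DIV1 replicate 1, and 0.064 without KO DIV1 replicate 2 and 0.33 without KO DIV1 replicate 1. The log2 fold changes of Mbnl1 and Mbnl2 were -0.37 and -0.37 without KO DIV1 replicate 2. Without KO DIV1 replicate 1 they were -0.044 and 0.014. The neuronal markers summed to 5513 and 5819 CPM in KO DIV1, against 6102 and 5965 CPM in WT DIV1, and their part in these differences was not tested. Because the DIV3 and knockout comparisons share the WT DIV1 libraries, the opposite signs of Celf4, Celf5 and Celf6 in the pair of comparisons are not independent of each other.

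Isoforms were compared as shares of the expected counts of a gene. Of the 109 transcripts, 31 passed the filters (low counts, and a mean share of 5% in at least 1 group), covering all 9 genes. Shares did not overlap between the groups for 13 of the 31 at DIV3 and for 20 in the knockout, against 46% and 48.8% of the 21513 transcripts tested. At DIV3, Celf2 was called for changed isoform usage and the other 8 genes were not, against 35 of 7645 genes (0.458%) called in all. Celf2 is a gene of many promoters and 28 annotated transcripts, of which 4 were tested. The edgeR diffSpliceDGE test gave Celf2 an adjusted p of 0.0191 (Simes, Benjamini-Hochberg). It was also called by the F test of diffSpliceDGE and by limma's diffSplice. The call ended with the replicate block (adjusted p = 0.179) and without any 1 of the 4 wild-type libraries (adjusted p from 0.0666 to 0.509).

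The transcript behind the Celf2 call was Celf2-201, which starts at a far upstream first exon. It took 8.19% and 13.1% of Celf2 counts in WT DIV3, against 0.0770% and 0.163% in WT DIV1, and was the only one of the 4 to pass on its own (adjusted p = 0.0127 over transcripts, edgeR diffSpliceDGE, Benjamini-Hochberg). In KO DIV1 it took 0.181% and 0.0333%. Celf2-206, the transcript with the largest share at DIV1, took 20.0% and 19.7% in WT DIV3, against 51.5% and 52.7% in WT DIV1. Its mean share was lower by 32.2 percentage points with replicates within 2 points of each other, but tested alone against the other transcripts it did not pass (unadjusted p = 0.0698). Celf2-204 took 19.3% and 7.06% in WT DIV3, against 2.55% and 1.08% in WT DIV1 (unadjusted p = 0.00314, adjusted p = 0.405, edgeR diffSpliceDGE). Celf2-214 took 44.5% and 51.5% in WT DIV3, against 41.0% and 42.6% in WT DIV1. The plot of Celf2 transcript shares shows the same low share of Celf2-206 in both WT DIV3 libraries, with larger shares of Celf2-201, Celf2-204 and Celf2-214 in amounts that differed between the replicates.

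In the knockout, the shares of Celf2-206 and Celf2-214 lay on the other side of WT DIV1 from those at DIV3. Celf2-206 took 72.7% and 60.1% in KO DIV1, against 51.5% and 52.7% in WT DIV1. Celf2-214 took 25.9% and 36.4% in KO DIV1, against 41.0% and 42.6% in WT DIV1. These shares did not overlap between the groups, as for 48.8% of all transcripts, and Celf2 was not called (unadjusted p = 0.0844, adjusted p = 1.0, edgeR diffSpliceDGE with Simes and Benjamini-Hochberg), and none of the 9 genes was, against 43 of 7645 (0.562%) called in all. With 1 library left out, the knockout difference ranged from 8.02 to 20.6 percentage points for Celf2-206. It then ranged from 5.52 to 30.3 points for Mbnl1-214 and from -45.6 to -32.2 points for Mbnl2-201.

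**Figure D3:**
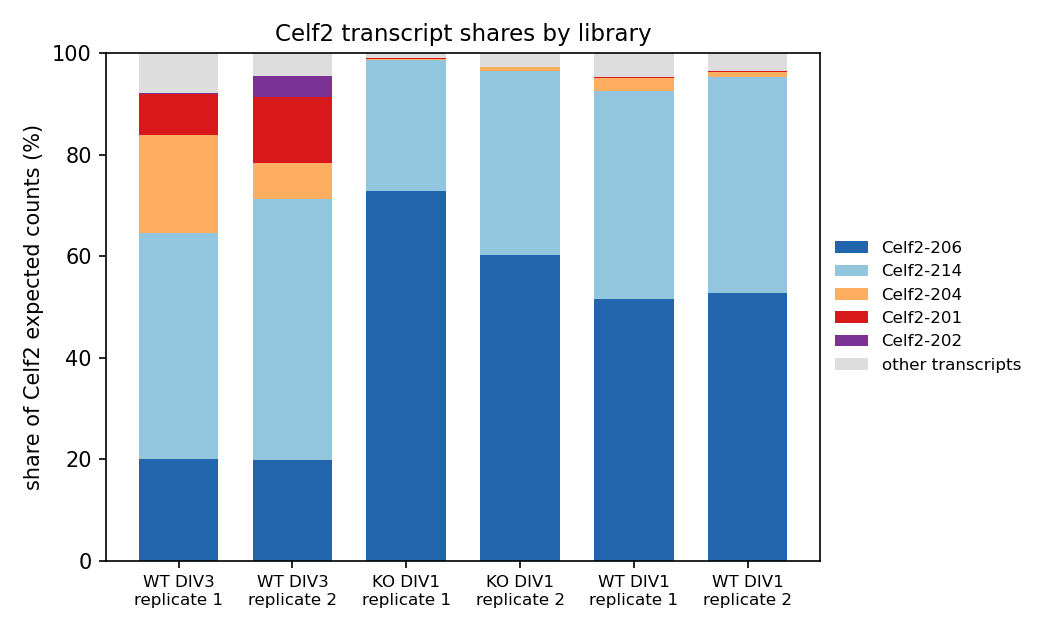
Share of Celf2 expected counts (percent, stacked to 100) in every library, for the transcripts with the largest shares and for all other transcripts pooled. Celf2-206 takes 20.0% and 19.7% in WT DIV3, 72.7% and 60.1% in KO DIV1, and 51.5% and 52.7% in WT DIV1, and Celf2-201 is visible as a thick band in WT DIV3 alone.

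The Celf2 transcripts differ at both ends. Grouping them by first exon and by 3′ end was chosen after the values were seen and is given without a test. Celf2 lies on the minus strand of chromosome 2 (6539694 to 7509563, GRCm38). Transcripts whose first exon ends at 7395858, Celf2-201 and Celf2-217, took 8.20% and 13.1% in WT DIV3, 0.181% and 0.0333% in KO DIV1, and 0.0770% and 0.163% in WT DIV1. Those whose first exon ends at 6884852, far closer to the 3′ end, took 83.9% and 78.3% in WT DIV3, 98.8% and 97.3% in KO DIV1, and 95.2% and 96.4% in WT DIV1. The start at 7395858 was therefore close to 0 in all DIV1 libraries of either genotype. A neighbouring upstream first exon had a higher share than that start in both WT DIV1 libraries and in KO DIV1 replicate 2, but not in KO DIV1 replicate 1. Celf2-209, a 630-nt transcript whose first exon ends at 7396132, took 1.62% and 0.987% in WT DIV3 and 0.998% and 0.837% in WT DIV1. In KO DIV1 it took 0.0655% and 0.621%. In TPM, Celf2-209 had 59.3 and 33.1 in WT DIV3, 1.51 and 16.4 in KO DIV1, and 29.9 and 23.9 in WT DIV1.

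At the 3′ end, Celf2-206 is the transcript that stops at 6541869, while Celf2-201, Celf2-202, Celf2-204 and Celf2-214 run on to 6539694. The 4 longer transcripts together took 72.0% and 75.8% in WT DIV3, 26.2% and 37.2% in KO DIV1, and 43.6% and 43.8% in WT DIV1. The share-weighted mean length of Celf2 RNA was 7497 and 7656 nt in WT DIV3, 6325 and 6626 nt in KO DIV1, and 6763 and 6822 nt in WT DIV1. Over the 7645 genes tested, the median difference in weighted length from the WT DIV1 mean was 0.186% and 0.181% in WT DIV3, and -0.171% and 0.00% in KO DIV1. The part of the length trend between the KO DIV1 replicates in these shares was not tested.

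For the other CELF genes no isoform difference passed in either comparison. Celf1 was spread over transcripts from several first exons, and its replicates disagreed. Transcripts whose first exon ends at 90998767 of chromosome 2, Celf1-204 and Celf1-205, took 6.21% and 23.8% in WT DIV3, 75.1% and 39.4% in KO DIV1, and 15.2% and 27.9% in WT DIV1. The split among them was unstable, with Celf1-205 at 0% and 9.86% in WT DIV3, 47.0% and 21.03% in KO DIV1, and 0% and 15.2% in WT DIV1. Celf1-202 took 42.2% and 33.1% in WT DIV3, 9.66% and 20.7% in KO DIV1, and 30.1% and 26.8% in WT DIV1. Its shares in KO DIV1 and WT DIV1 did not overlap, as for 48.8% of all transcripts, and the gene was far from passing (unadjusted p = 0.963 in the knockout, edgeR diffSpliceDGE with Simes).

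Celf3, Celf4 and Celf5 kept their leading transcript in each group. Celf3-215 took 50.5% and 57.0% in WT DIV3, 50.9% and 48.6% in KO DIV1, and 56.5% and 53.1% in WT DIV1. Celf4-201 took 85.7% and 85.7% in WT DIV3, 90.0% and 90.3% in KO DIV1, and 84.6% and 88.4% in WT DIV1. Celf5-201 took 94.3% and 96.4% in WT DIV3, 80.8% and 96.5% in KO DIV1, and 96.2% and 96.9% in WT DIV1. The 1 low value, from KO DIV1 replicate 1, came with 17.1% for Celf5-202, which was at 0% in KO DIV1 replicate 2. Celf6-201 took 29.5% and 34.6% in WT DIV3, 53.8% and 49.4% in KO DIV1, and 41.0% and 38.8% in WT DIV1. Celf6-201 was below WT DIV1 in both WT DIV3 libraries and above it in both knockout libraries, but the gene-level p-values were 0.979 at DIV3 and 0.709 in the knockout (unadjusted, edgeR diffSpliceDGE with Simes).

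Among the Muscleblind genes, Mbnl1-214 took 34.4% and 49.8% in WT DIV3, 95.2% and 70.4% in KO DIV1, and 62.4% and 67.4% in WT DIV1. The spread within the WT DIV3 and KO DIV1 pairs was wide, and neither comparison passed (unadjusted p = 0.741 at DIV3 and 0.767 in the knockout, edgeR diffSpliceDGE with Simes). Mbnl1-201 took 38.4% and 17.2% in WT DIV3, 3.63% and 5.63% in KO DIV1, and 14.8% and 14.4% in WT DIV1. Mbnl3-203 took 37.2% and 62.1% in WT DIV3, 69.7% and 59.6% in KO DIV1, and 51.7% and 57.0% in WT DIV1, from no more than 383 expected counts of the gene in any library. A shift of 10 points or more in the mean share of some transcript, with no test, occurred in 3 of the 9 genes at DIV3 (Celf1, Celf2 and Mbnl1), against 23.1% of all genes, and in 6 in the knockout (also Celf6, Mbnl2 and Mbnl3), against 33% of all genes.

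Cassette exons let transcripts be pooled over a shared coding feature. Several Muscleblind exons are alternative in more than 1 family member and are known to be controlled by Muscleblind proteins themselves. A 54-nt exon contributes to nuclear localization of MBNL1, and a 36-nt exon further downstream has been tied to self-association. Both are shown because family members share them and their inclusion in Mbnl1 varied widely between libraries. Capitals mark the bases that all family members printed in a set have in common. The sequences were read from GENCODE M21 transcripts (GRCm38).
Mbnl1 54-nt exon, chr3:60614683-60614736, plus strand: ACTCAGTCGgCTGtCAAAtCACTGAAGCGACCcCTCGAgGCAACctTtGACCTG
Mbnl2 54-nt exon, chr14:120395712-120395765, plus strand: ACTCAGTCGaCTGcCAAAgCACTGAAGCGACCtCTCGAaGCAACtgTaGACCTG
Mbnl1 36-nt exon, chr3:60621423-60621458, plus strand: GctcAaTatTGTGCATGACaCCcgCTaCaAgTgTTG
Mbnl2 36-nt exon, chr14:120403336-120403371, plus strand: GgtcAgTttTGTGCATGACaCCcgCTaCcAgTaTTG
Mbnl3 36-nt exon, chrX:51126126-51126161, minus strand: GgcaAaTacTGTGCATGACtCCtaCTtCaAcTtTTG
The 54-nt exons of Mbnl1 and Mbnl2 shared 46 of 54 bases (85.2%). The 36-nt exons shared 31 of 36 bases between Mbnl1 and Mbnl2, 26 between Mbnl1 and Mbnl3, and 24 between Mbnl2 and Mbnl3, and 23 bases were common to all 3 genes.

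In the CELF family, a 144-nt exon encodes the start of the third RNA recognition motif and is skipped in some Celf2 transcripts. It is shown beside its Celf1 counterpart, with shared bases in capitals.
Celf2 144-nt exon, chr2:6549832-6549975, minus strand: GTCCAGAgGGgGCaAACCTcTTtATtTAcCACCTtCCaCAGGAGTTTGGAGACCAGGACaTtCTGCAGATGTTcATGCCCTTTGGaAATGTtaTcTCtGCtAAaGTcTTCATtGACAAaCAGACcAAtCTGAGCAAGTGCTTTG
Celf1 144-nt exon, chr2:91012699-91012842, plus strand: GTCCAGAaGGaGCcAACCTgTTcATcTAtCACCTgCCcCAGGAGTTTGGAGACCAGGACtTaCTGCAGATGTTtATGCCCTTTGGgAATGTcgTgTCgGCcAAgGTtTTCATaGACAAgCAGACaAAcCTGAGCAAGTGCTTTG
The pair shared 120 of 144 bases (83.3%), against 103 of 144 between Celf2 and Celf3 and 102 of 144 between Celf2 and Celf6.

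Of 31 annotated cassette exon events in the 9 genes, 26 in 7 genes had enough counts to be tested. None was called in either comparison by edgeR diffSpliceDGE with Benjamini-Hochberg adjustment over 10581 events, against 29 events (0.274%) called in all at DIV3 and 41 (0.387%) in the knockout. At an unadjusted p under 0.05 there were 1 of 26 at DIV3 and 2 of 26 in the knockout, against 9.79% and 10.6% of all events. Inclusion was at 99% or more in every library for 7 of the 26, and at 1% or less for 3. A difference of 10 points or more, with no test, was seen for 3 events at DIV3 and 8 in the knockout, against 7.9% and 11.1% of all events. Inclusion did not overlap between the groups, by any margin, for 7 of the 26 at DIV3 and 14 in the knockout, against 34.6% and 34.8% of all events. Events of 1 gene share transcripts and are not independent of each other.

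The 54-nt exon of Mbnl1 was included in 43.6% and 71.6% of counts in WT DIV3, 95.9% and 91.1% in KO DIV1, and 79.3% and 80.9% in WT DIV1. Both WT DIV3 values lay below those of WT DIV1 and both KO DIV1 values above them, a separation that 34.6% and 34.8% of all events showed in 1 direction or the other. The mean difference was -22.5 percentage points for WT DIV3 against WT DIV1 (unadjusted p = 0.0217, BH-adjusted p = 0.356, edgeR diffSpliceDGE). It was 13.4 points for KO DIV1 against WT DIV1 (unadjusted p = 0.00983, adjusted p = 0.259). The size at DIV3 rested on WT DIV3 replicate 1, since it was -8.49 points without that library and -36.5 points without WT DIV3 replicate 2. In the knockout it was 11.04 points without KO DIV1 replicate 1 and 15.8 points without KO DIV1 replicate 2. The Mbnl2 counterpart is part of both annotated Mbnl2 transcripts, so its inclusion could not be measured.

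Mbnl1-214 carried nearly all inclusion of the 54-nt exon of Mbnl1 and all skipping counts of its 36-nt exon. These exons and the Mbnl1-214 share are therefore largely the same counts seen in another way. Mbnl1-214 also has another first exon than Mbnl1-201 and Mbnl1-203, ending at 60529804 against 60501423. The 36-nt exon thus ran the other way in Mbnl1. It was included in 61.8% and 47.5% in WT DIV3, 3.67% and 27.4% in KO DIV1, and 35.1% and 30.4% in WT DIV1 (adjusted p = 0.737 at DIV3 and 0.610 in the knockout, edgeR diffSpliceDGE, Benjamini-Hochberg). In Mbnl2 the same exon was included in 40.0% and 74.5% in WT DIV3, 100% and 86.6% in KO DIV1, and 55.4% and 53.3% in WT DIV1. Knockout values lay above those of WT DIV1 in Mbnl2 and below them in Mbnl1, beside 34.8% of all events without overlap, and neither passed (adjusted p = 0.503 for Mbnl2 in the knockout, a mean difference of 38.9 points, and 1.0 at DIV3). In Mbnl3 its inclusion was low, at 1.31% and 0% in WT DIV3, 8.64% and 4.54% in KO DIV1, and 0.690% and 3.20% in WT DIV1. With 1 library left out, the knockout difference of the 36-nt exon ranged from -29.1 to -5.38 points in Mbnl1 and from 32.2 to 45.6 points in Mbnl2.

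The 144-nt exon of Celf2 was included in 53.6% and 47.3% in WT DIV3, 73.9% and 63.0% in KO DIV1, and 58.0% and 56.6% in WT DIV1. The mean difference was -6.85 points for WT DIV3 against WT DIV1 (BH-adjusted p = 0.634, edgeR diffSpliceDGE). It was 11.2 points for KO DIV1 against WT DIV1 (unadjusted p = 0.0180, adjusted p = 0.354), 5.73 points without KO DIV1 replicate 1 and 16.6 points without KO DIV1 replicate 2. Skipping of this exon was carried mainly by Celf2-214, so the exon and the transcript shares are the same counts seen in another way. In Celf6, a 63-nt exon at chr9:59603808-59603870 was included in 36.4% and 41.2% in WT DIV3, 16.8% and 32.7% in KO DIV1, and 40.1% and 34.2% in WT DIV1. Its values in WT DIV3 and WT DIV1 overlapped, and the low KO DIV1 value came from replicate 1 (adjusted p = 0.534 in the knockout, edgeR diffSpliceDGE, Benjamini-Hochberg).

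**Figure D4:**
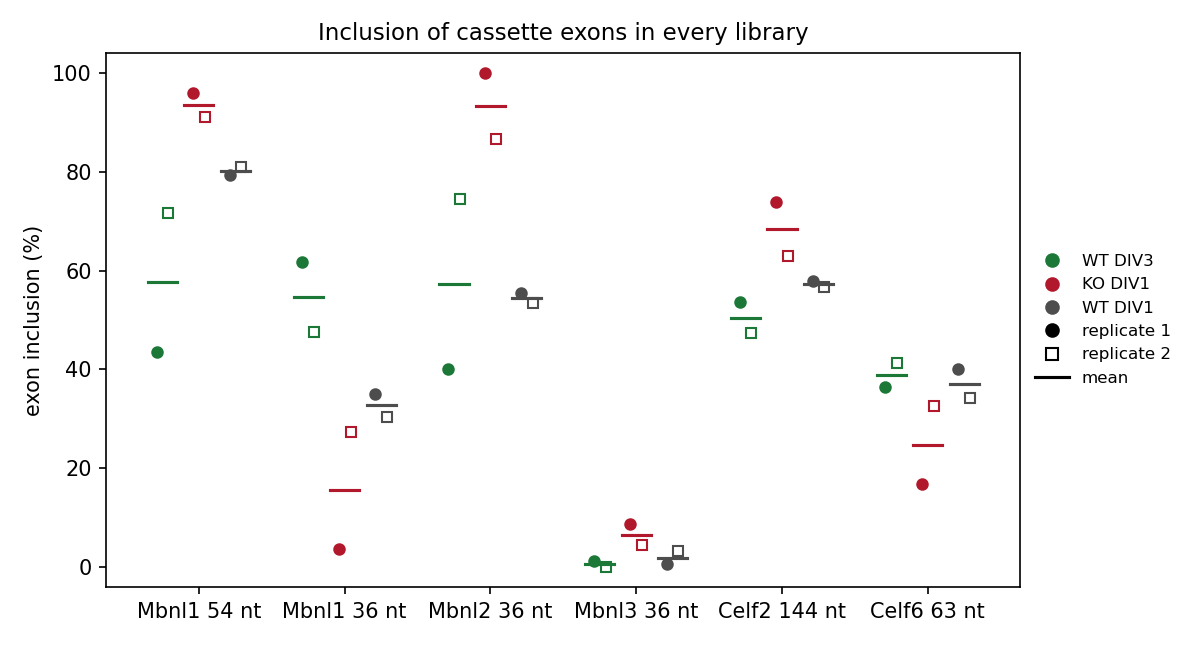
Inclusion (percent of the counts of including plus skipping transcripts) of 6 cassette exons in every library, with circles for replicate 1, open squares for replicate 2 and a line for the mean of each group. The Mbnl1 54-nt exon is at 43.6% and 71.6% in WT DIV3, 95.9% and 91.1% in KO DIV1, and 79.3% and 80.9% in WT DIV1, and no exon shown passed the test.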

How the data were processed

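Stranded total RNA libraries (TRIzol, DNase, an Illumina TruSeq Stranded Total RNA kit, per the labels' protocols) were quantified by the authors. The deposited values are expected counts per gene and per transcript, made with STAR and RSEM on GRCm38 (mm10) per the submitters' processing notes, with versions and annotation release not given in the sources used here. They are not scaled for depth or length, replicates were not pooled, and the uncertainty of RSEM's split of reads among transcripts is not in the tables, so no test carries it. Symbols, exons and lengths came from GENCODE M21 by identifier (99.5% of genes and 99.4% of transcripts matched).

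Counts were rounded to whole numbers. Genes were kept by filterByExpr (minimum count 10), scaled by TMM (factors 0.950 to 1.04) and tested with edgeR 4.0.16 (quasi-likelihood F test, R 4.3.3) with all 6 libraries in 1 fit, which leaves 3 residual degrees of freedom. Benjamini-Hochberg adjustment ran over all genes. Isoform usage was tested with edgeR's diffSpliceDGE (Simes) on transcripts with a mean share of 5% or more in a group, and cassette exons with the same function on including against skipping transcripts with at least 20 counts in every library. Both needed an adjusted p under 0.05 and a difference of 10 percentage points. TPM used annotated, not effective, lengths. The design text speaks of biological replicates without naming embryo, litter or culture day, so the p-values reflect the spread between libraries, which may be technical. Library totals were 39104879 to 75522198. Replicate pairs differed by more than sampling noise (chi-square per gene 18.7 in WT DIV3, 75.0 in KO DIV1 and 22.7 in WT DIV1).

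All 9 genes, their transcripts with a mean share of 10% or more in a group, their tested exons, and the 2 nearest profiles per gene were eligible to be named; the nearest profiles of Celf6 are not reported here. Members and lists were chosen with earlier results of these data known. Alternatives were DESeq2 1.42.0, limma 3.58.1, other scalings and filters, a per-library smooth on transcript length, a replicate block, and leaving out each library. The scripts were tested on simulated data.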

Additional observations from a re-analysis of the deposited data

How the results depend on the processing

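Depth limits Mbnl3 most, with 64 to 383 expected counts per library. At DIV3 the number of the 9 genes called for total level was 4 to 6 in every setting and with each library left out. In the knockout it was 0, but 1 with DESeq2, beside 198 of 15192 genes called in all. It was also 1 with no filter on low counts, beside 1061 of 26492 genes. The gene was Celf6 in both. The number called for isoform usage at DIV3 was 1, but 0 with the replicate block, and 0 to 1 with 1 library left out, while in the knockout it was 0 to 4 and for cassette exons in the knockout 0 to 5 with 1 library left out. For cassette exons at DIV3 it was 0 throughout. With the length trend removed, the log2 fold change of Celf1 turned to -0.027 at DIV3 (also -0.027 with the block) and to 0.10 in the knockout (0.10 with the block), and that of Celf2 in the knockout to 0.10 (0.094 with the block). With 1 library left out, log2 fold changes ranged from -0.10 to 0.059 for Celf3 at DIV3, from -0.21 to 0.025 for Celf1 and from -0.37 to 0.014 for Mbnl2 in the knockout. Differences in percentage points then ranged from -2.70 to 1.09 for Celf4-201, from -4.17 to 15.9 for Mbnl3-202 and from -20.1 to 14.4 for Mbnl2-201 at DIV3, and from -25.3 to 53.5 for the Mbnl1 1049-nt exon in the knockout. The cause of these changes was not tested. A single library is assumed to vary like the other groups where its partner is left out. Replicate numbers did not pair the libraries by label, and deviations from the group mean with the same number correlated at 0.38 between WT DIV3 and WT DIV1, 0.04 between KO DIV1 and WT DIV1 and -0.09 between KO DIV1 and WT DIV3. Of all genes, the block called 4702 in place of 6088 at DIV3 and 0 in the knockout. It ended the calls of Celf2 and Mbnl2 for total level and of Celf2 for isoform usage at DIV3, and changed no other call among the 9 genes.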

Other observations

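For 8 of the 9 genes, leaving out Celf6, the 2 genes with the closest expression profile were found by the distance between log2 CPM profiles over the 6 libraries, each centred on its own mean, among 10468 or 10469 genes averaging 5 CPM or more. Celf4 lay nearest to Atp1b2, which encodes a beta subunit of the sodium-potassium ATPase (distance 0.06), and to Nrcam, a cell adhesion gene (0.09). Celf5 lay nearest to Gpr155 (0.05) and to the transcription factor gene Mef2d (0.06). Celf2 lay nearest to Triobp (0.04) and Exoc6b (0.04), Celf1 to Nampt (0.03) and Cnot7 (0.04), and Celf3 to Wdr70 (0.06) and Dis3l2 (0.08). Mbnl1 lay nearest to Pus7 (0.05) and Zc3h11a (0.05), Mbnl2 to Tcf12 (0.06) and Ccp110 (0.06), and Mbnl3 to Msrb3 (0.19) and Nusap1 (0.20), a spindle gene of dividing cells. The profiles span 3 groups of 2 libraries, so a small distance can reflect a similar pair of group differences. It can also reflect a flat profile. The range over the 6 libraries was 0.37 log2 units for Celf1 and 0.23 for Celf3, against 1.05 for Celf4 and 1.05 for Celf5.

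A list of 47 genes with exons or transcripts known from studies of Muscleblind or CELF proteins, the 5 listed family members left out, was compared in the same way. The list was chosen with earlier results of these data known, so its counts are no independent comparison with all genes. Of 42 tested for total level, 20 were higher and 2 lower in WT DIV3 than in WT DIV1, with a median log2 fold change of 0.30, beside 19.8% higher and 16.4% lower over all genes. Mapt, the tau gene, had 1.59 ± 0.10 and Grin1, the obligatory NMDA receptor subunit, had 1.38 ± 0.10 (BH-adjusted p = 0.000135 and 0.000182, edgeR). The lower ones were Numa1 (-0.48), a spindle pole gene, and Ldb3 (-0.54), a gene of the sarcomere. Mapt, Grin1, Numa1 and Ldb3 were chosen after their values were seen. In the knockout none of the 42 was called, with a median of -0.18. Isoform usage was called for none of 27 tested list genes in either comparison, against 0.458% of all genes at DIV3 and 0.562% in the knockout. Cassette exon inclusion was called for none of 114 tested events, against 0.274% and 0.387% of all events. A shift of 10 points or more in some transcript, with no test, was seen in 6 of the 27 genes at DIV3 and 11 in the knockout, against 23.1% and 33% of all genes.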
